A study of Rattus norvegicus with 4 samples.

Results

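Loci named after genes of the ubiquitin and proteasome system were examined in cortical astrocytes of newborn Wistar rats. Members were taken by name, wherever the gene name of a listed noncoding transcript began with Usp, Ube, Ubr, Ubx, Uba and a digit, Fbxo, Fbxl, Fbxw, Trim, Rnf, Cul and a digit, Dcun1d, Psm, Otud, Uch or Cops, or was Myeov2, a former name of Cops9. Transcripts sharing a name and a chromosome were summed, which gave 129 member loci from 204 transcripts, of 17290 loci and 20524 transcripts in all. The loci are noncoding transcripts listed at these genes, and 128 of the 129 names matched a protein-coding gene of the RefSeq rat annotation on the same chromosome. Their counts may include reads of the messenger RNA, and the sources used here do not say whether counting used strand.

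The cells came from rats younger than 24 h and grew on coverslips above neurons, held apart from them by paraffin spots. In 2 libraries (OGD 1 and OGD 2) the co-cultures had gone through oxygen and glucose deprivation (OGD), 45 min in glucose-free medium at 1% O2, and had then stayed for 24 h in normal medium and air, a form of ischemic preconditioning. The other 2 libraries (control 1 and control 2) came from untreated cells. The labels do not say that replicates were separate cultures, so every p-value rests on differences among these 4 libraries that may be purely technical.

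Ubiquitin is a small protein that a cascade of enzymes attaches to other proteins. An activating enzyme (E1) passes it to a conjugating enzyme (E2), and a ligase (E3) selects the substrate. Cullin ligases are built on a cullin scaffold, use F-box proteins or other receptors to bind substrates, are switched on when the ubiquitin-like protein NEDD8 is attached, and are switched off again by the COP9 signalosome. Chains of ubiquitin direct proteins to the proteasome, a barrel-shaped protease with a regulatory cap, and deubiquitinases remove them. In mammals a cullin ligase with the von Hippel-Lindau protein degrades the hypoxia factor HIF when oxygen is present.

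The libraries held 2646300 and 2513804 counts after OGD, against 2607020 and 2631684 in control. Members took 0.639% and 0.630% of these after OGD, against 0.642% and 0.627% in control. Of 9 astrocyte marker names 4 were carried by listed loci, and Gfap, the astrocyte intermediate filament gene, had 139 and 51 counts after OGD, against 100 and 61 in control. These 4 (Gfap, Glul, Slc1a2 and Slc1a3) summed to 58.0 and 27.5 CPM (counts scaled to library size with TMM normalisation) after OGD, against 41.5 and 29.1 CPM in control, and Glul, the glutamine synthetase gene, was at 0 in 3 of the 4 libraries. Loci with 3 of 7 neuron marker names summed to 108 and 112 CPM after OGD, against 82.6 and 112 CPM in control. Microglia and macrophage names (3 of 6) summed to 10.9 and 35.9 CPM after OGD, against 28.4 and 43.4 CPM in control, and oligodendrocyte lineage names (3 of 6) to 7.91 and 10.0 CPM, against 8.01 and 17.1 CPM. Fibroblast and meningeal names (2 of 5) summed to 184 and 325 CPM after OGD, against 160 and 344 CPM in control. Endothelial and mural names (2 of 6) summed to 32.0 and 25.0 CPM after OGD, against 3.64 and 7.57 CPM in control, and their part in the results below was not tested.

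Promoter sequences were read from the RefSeq table of assembly GRCr8, which held 300 bases (250 before and 50 after the start) for 107 of the members. Proteasome genes are known in mice and humans to be induced together through antioxidant response elements, whose core was searched as TGACNNNGC on both strands. These letters stood in 21 of the 107 member promoters (19.6%) and in 2414 of 19005 promoters of protein-coding genes (12.7%). Among 12 promoters of genes with a Psm name, 4 held them, at Psmb6, Psmd1, Psmd9 and Psme4. The letters ACGTG, the core of the site that HIF binds, stood on either strand in 23 of the 107 (21.5%) and in 20.4% of the promoters of protein-coding genes. Neither motif contains the other, but ACGTG is also part of the E-box CACGTG. Shown are Dcun1d1, the member with the smallest p, Psmd1, a proteasome cap subunit gene with 2 matches, and Usp14, the gene of a proteasome-bound deubiquitinase. Capitals mark TGACNNNGC on either strand, and Dcun1d1 has no match in this window. A match describes the letters and is no evidence of binding.
Dcun1d1 (chr2:120695943-120696242, minus strand): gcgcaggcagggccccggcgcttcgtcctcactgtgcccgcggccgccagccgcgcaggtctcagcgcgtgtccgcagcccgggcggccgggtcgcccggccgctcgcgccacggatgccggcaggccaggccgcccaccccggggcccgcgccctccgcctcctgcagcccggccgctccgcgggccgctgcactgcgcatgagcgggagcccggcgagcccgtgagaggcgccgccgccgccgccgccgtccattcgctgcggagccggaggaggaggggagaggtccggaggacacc
Psmd1 (chr9:94157721-94158020, plus strand): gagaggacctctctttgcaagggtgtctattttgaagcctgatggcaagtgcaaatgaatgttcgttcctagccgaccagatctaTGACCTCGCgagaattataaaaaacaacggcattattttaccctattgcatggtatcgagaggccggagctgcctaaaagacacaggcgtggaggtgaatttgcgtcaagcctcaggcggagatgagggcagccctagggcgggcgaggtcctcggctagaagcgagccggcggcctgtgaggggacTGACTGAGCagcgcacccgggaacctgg
Usp14 (chr18:1330287-1330586, minus strand): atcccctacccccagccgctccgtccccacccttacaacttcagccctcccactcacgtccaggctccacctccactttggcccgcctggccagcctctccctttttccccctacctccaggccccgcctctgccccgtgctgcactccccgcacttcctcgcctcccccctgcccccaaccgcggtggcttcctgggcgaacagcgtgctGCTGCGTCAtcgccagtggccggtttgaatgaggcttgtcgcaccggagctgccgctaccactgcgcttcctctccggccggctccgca

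Conjugating enzymes gave the highest levels. Per length, in FPKM summed over a locus (fragments per kilobase of transcript, scaled to sequencing depth), Ube2d3 stood at 110 and 89.7 after OGD, against 82.6 and 97.9 in control. Ube2d3 and Ube2d2 encode closely related E2 enzymes that work with many RING ligases. Ube2d2 stood at 52.0 and 48.9 FPKM after OGD, against 53.0 and 44.4 FPKM in control. Rnf4, the gene of a ligase that recognises SUMO-modified proteins, stood at 38.4 and 41.6 FPKM after OGD, against 39.6 and 45.3 FPKM in control. The groups overlapped in FPKM at all 3 loci.

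Ube2j1 and Ube2j2 encode E2 enzymes anchored in the endoplasmic reticulum, where they serve the removal of misfolded proteins. Ube2j1 stood at 28.4 and 30.6 FPKM after OGD, against 31.5 and 29.7 FPKM in control. Ube2j2 stood at 9.04 and 16.6 FPKM after OGD, against 17.3 and 16.6 FPKM in control, with OGD 1 apart from the other libraries. Number 1 libraries were the higher ones in both groups at Usp33, a deubiquitinase gene, with 24.0 and 18.9 FPKM after OGD, against 24.6 and 17.7 FPKM in control.

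Rnf149 and Rnf41, also among the members with high FPKM, encode RING ligases. Rnf149 stood at 10.8 and 13.0 FPKM after OGD, against 12.3 and 11.6 FPKM in control. Rnf41, the gene of a ligase that lowers ERBB receptor levels, stood at 11.1 and 15.7 FPKM after OGD, against 9.95 and 9.26 FPKM in control. Of the 8 loci described here by FPKM, Rnf41 alone had both OGD libraries above both controls. The median of the mean FPKM over tested members was 2.21, and the 3 members with most counts held 50.3% and 51.0% of all member counts after OGD, against 47.7% and 53.7% in control.

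**Figure D1:**
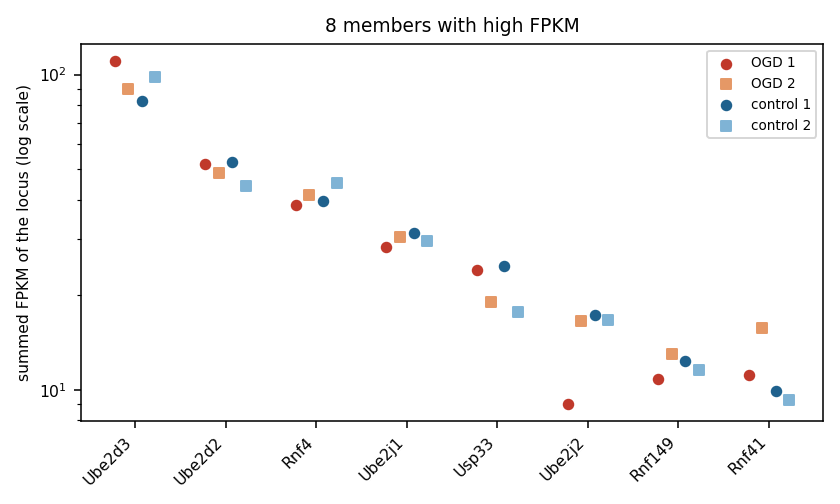
Summed FPKM (log scale) of 8 member loci with high values, 1 point per library, with OGD libraries to the left of control libraries in each column. Ube2d3 lies between 82.6 and 110 FPKM in all 4 libraries, and Rnf41 is higher in both OGD libraries than in both controls.

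Of the 129 members, 87 had enough counts to be tested for a difference between OGD and control. They passed a low-count filter that asks for a minimum CPM in at least 2 libraries and a minimum sum over all 4. A locus that was high in OGD or in control alone could therefore pass. Mean counts of the tested members ran from 10.5 to 3169 with a median of 41. The untested 42 had at most 18 counts in any library, and 3 of them (Fbxo23, Fbxo36 and Fbxo43) had 0 in all 4. By edgeR's quasi-likelihood test over 9581 loci, 0 members passed an adjusted p of 0.05, where 0.0835% of all tested loci did. At an unadjusted p under 0.05 in edgeR there was 1 member of 87, lower after OGD, against 2.33% of all tested loci (1.23% higher and 1.10% lower). DESeq2 called 0 of the 87, against 0.404% of loci, with 1 member at an unadjusted p under 0.05. The smallest adjusted p of a member in edgeR was 1.00. In bulk samples, fewer cells of a type and less RNA per cell cannot be told apart.

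The median log2 fold change (OGD over control) was 0.02 over the 87 members and -0.0018 over all tested loci, and 46 members lay above 0 and 41 below. In size, 69 of the 87 lay within 0.5 on the log2 scale, and 3 (Dcun1d1, Psmd4 and Rnf32) exceeded 1. That is 3.45% of the tested members, against 4.43% of all tested loci. The standard errors of members ran from 0.16 at Ube2d2 to 1.58 at Myeov2, with a median of 0.36. Both OGD libraries lay above both controls in CPM at 11 members and below them at 13, together 27.6% of the 87. Among all tested loci 14.0% lay above and 14.0% below, 28.0% together.

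**Figure D2:**
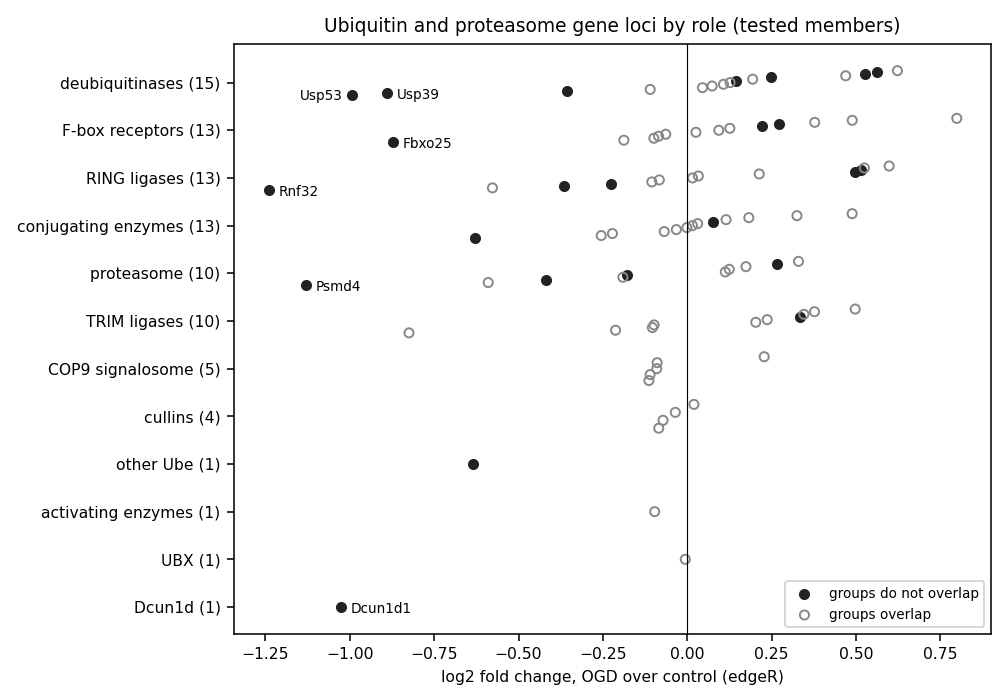
Log2 fold change, OGD over control, of the 87 tested members by role, with the number of loci in brackets. Filled points are loci whose groups do not overlap in CPM. Most points lie within 0.5 of zero, and the 3 beyond 1 in size (Dcun1d1, Psmd4, Rnf32) lie on the negative side.

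Dcun1d1 (chromosome 2, 122476731 to 122504523, coordinates as the tables give them) encodes a protein that helps attach NEDD8 to cullins. Its counts were 57 and 64 after OGD, against 137 and 121 in control. Both OGD libraries were low and the groups did not overlap, as at 14.0% of all loci in that direction. The mean was 24.1 ± 3.69 CPM after OGD and 49.0 ± 1.16 CPM in control (SD, n = 2 each). The log2 fold change was -1.03 (SE 0.24), with an unadjusted p of 0.00901 and an adjusted p of 1.00 in edgeR. Without OGD 1 the unadjusted p was no longer under 0.05 (log2 fold change -0.86).

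The sum at Dcun1d1 joins 2 listed transcripts with the same start coordinate, and the shorter lies within the span of the longer. The longer, spliced transcript c had 0 and 0 counts after OGD, against 105 and 0 in control, so that it was counted in 1 library alone. The shorter, unspliced transcript d had 57 and 64 counts after OGD, against 32 and 121 in control, and its groups overlapped. Tested alone, transcript d had a log2 fold change of -0.32 (unadjusted p = 0.679 in edgeR). The other member of the family, Dcun1d4, had 8 and 4 counts after OGD, against 5 and 2 in control, and was not tested.

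The cullin loci had few counts, and the groups overlapped at all 4 tested, as at 72.0% of all tested loci. Cul1, the scaffold of ligases that use F-box receptors, had 20 and 49 counts after OGD, against 41 and 36 in control, with OGD 1 low and OGD 2 high. Cul2, the scaffold of the von Hippel-Lindau ligase, had 11 and 11 counts after OGD, against 19 and 4 in control. Cul4b had 13 and 7 counts after OGD, against 13 and 9 in control, and Cul5 had 9 and 16, against 15 and 12. All 4 log2 fold changes lay between -0.08 and 0.02, with standard errors that reached 0.75. Cul3 had at most 3 counts in any library.

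COP9 signalosome subunits overlapped between groups at all 5 tested loci, as did 72.0% of all tested loci. Cops2 had 49 and 49 counts after OGD, against 50 and 60 in control. Cops7a had 83 and 65 counts after OGD, against 78 and 87 in control. Cops4 had 33 and 53 counts after OGD, against 59 and 38 in control, and Cops3 had 13 and 16, against 16 and 10. These 4 subunits had log2 fold changes between -0.11 and 0.23.

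Myeov2, the gene of the smallest subunit, differed between libraries in another way. It had 1 and 42 counts after OGD, against 4 and 44 in control, so that the number 2 libraries were high and the number 1 libraries low in both groups. Rnf7, the gene of a RING partner of cullin 5, had the opposite order, with 18 and 0 counts after OGD, against 26 and 2 in control. Psmc3ip had 28 and 8 counts after OGD, against 51 and 6 in control. Its product acts in meiotic recombination and is no proteasome subunit, although its name begins like one. At these 3 members both libraries of 1 replicate number exceeded both of the other number by at least 3-fold, a gap that 0 members showed between OGD and control. Over all tested loci the gap stood at 0.960% with number 1 higher and 0.626% with number 2 higher, and at 0.344% with OGD higher and 0.230% with OGD lower than control.

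Across the 87 members, libraries of the same number were the closest. The correlation of log2 CPM was 0.962 between OGD 1 and control 1 and 0.956 between OGD 2 and control 2, against 0.905 between the OGD libraries and 0.919 between the controls. These values are over loci that share a library and its depth, and are given as a description. The 2 highest libraries were OGD 1 and control 1 at 25 members (28.7%), against 24.3% of all tested loci. They were OGD 2 and control 2 at 14 members (16.1%), against 23.6% of all loci. The labels do not say what the replicate number marks.

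The proteasome was represented by 15 loci with a Psm name, of which 10 were tested, and 5 of those lay above 0 and 5 below. Without Psmc3ip, which encodes no subunit, there were 14 loci with 9 tested, 5 above 0 and 4 below. Summed over the 14 loci, counts not scaled for depth were 407 and 325 after OGD, against 461 and 401 in control. These sums include Psmd4, with 57 and 12 counts after OGD, against 75 and 78 in control. Psma7, an alpha subunit of the barrel, had 71 and 82 counts after OGD, against 69 and 64 in control. Its log2 fold change was 0.27 (SE 0.26), and both OGD libraries were above both controls in CPM. Psmb6, a catalytic subunit of the barrel, had at most 2 counts in any library.

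Cap subunits were mixed. Psmd4, the gene of a ubiquitin receptor of the cap (chromosome 2, 196198306 to 196198713), had 57 and 12 counts after OGD, against 75 and 78 in control. Only OGD 2 was far from the rest, and the log2 fold change of -1.13 (SE 0.67) became -0.44 without OGD 2 and -2.52 without OGD 1. A StringTie transcript of 1401 bases that spans Psmd4 (196167668 to 196630238) had 96 and 108 counts after OGD, against 125 and 143 in control. When loci with overlapping transcripts were merged, the unit that holds Psmd4 had a log2 fold change of -0.08. Merging went by span with introns included, so this value describes the pooled unit and not Psmd4 alone.

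Psmd1, a scaffold subunit whose promoter is shown above, had 25 and 22 counts after OGD, against 29 and 36 in control, with a log2 fold change of -0.42 (SE 0.34). Psmd13 had 58 and 52 counts after OGD, against 75 and 55 in control, and its groups did not overlap in CPM although 58 exceeds 55 in counts. Psmd11 had 55 and 39 counts after OGD, against 42 and 44 in control. The ATPase subunit gene Psmc3 had 68 and 50 counts after OGD, against 79 and 61 in control, and Psmc2 had 24 and 33, against 31 and 24. Psme1 and Psme2.1 bear names of the interferon-inducible activator, with 18 and 11 counts after OGD, against 16 and 8 in control, at Psme1. Psme2.1 had 17 and 13 counts after OGD, against 19 and 10 in control. Apart from Psmd4 and Psmd1, the tested subunits had log2 fold changes between -0.19 and 0.33.

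**Figure D3:**
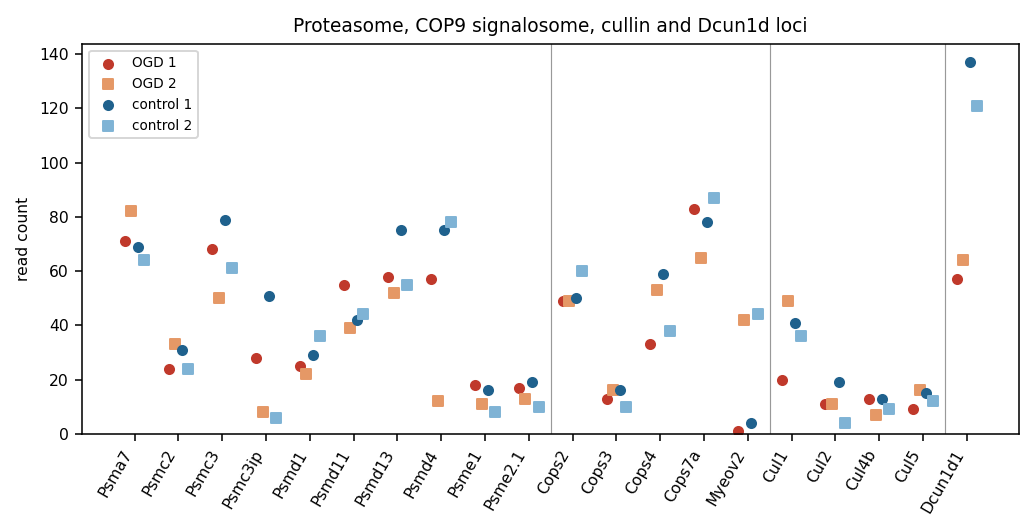
Read counts of the tested proteasome, COP9 signalosome, cullin and Dcun1d loci, 1 point per library, with OGD libraries to the left of control libraries in each column and lines between the groups of genes. Dcun1d1 is low in both OGD libraries, Psmd4 in OGD 2 alone, and Myeov2 in both number 1 libraries.

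Among loci with deubiquitinase names (Usp, Otud or Uch) 15 of 17 were tested, and 11 lay above 0 and 4 below. Over all 9581 tested loci, 4765 lay above 0 and 4816 below. The group was formed by name, and its Usp52 is now Pan2. Usp14, which trims ubiquitin chains at the proteasome, had 42 and 42 counts after OGD, against 27 and 32 in control. The mean was 16.7 ± 1.19 CPM after OGD and 11.3 ± 2.07 CPM in control (SD, n = 2 each), and the log2 fold change was 0.56 (SE 0.31, unadjusted p = 0.134 in edgeR). Uchl1, best known as an abundant neuronal deubiquitinase, had 38 and 62 counts after OGD, against 38 and 35 in control. Its log2 fold change of 0.53 became 0.04 without OGD 2, so that 1 library carried it. Otud1 had 55 and 52 counts after OGD, against 54 and 47 in control, and Otud5 had 47 and 53, against 46 and 42.

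Lower values after OGD stood at Usp39, whose product has lost its protease activity and works in splicing, with 11 and 12 counts after OGD, against 28 and 17 in control. The log2 fold change was -0.89 (SE 0.42, unadjusted p = 0.0889 in edgeR). Usp53, of the same family by name, had 12 and 6 counts after OGD, against 16 and 21 in control, and a log2 fold change of -0.99 (SE 0.50). Usp31 had 18 and 16 counts after OGD, against 19 and 26 in control. The most abundant deubiquitinase locus by counts, Usp33, had 842 and 654 counts after OGD, against 889 and 623 in control, with a log2 fold change of 0.05 (SE 0.22).

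RING ligase loci numbered 25, with 13 tested, 7 above 0 and 6 below. Rnf41 had 199 and 281 counts after OGD, against 178 and 175 in control. Its log2 fold change was 0.51 (SE 0.28), and 0.16 without OGD 2. Rnf135, a ligase of the RIG-I antiviral pathway, had 25 and 24 counts after OGD, against 17 and 19 in control. Rnf111, a ligase of TGF-beta signalling, had 407 and 436 counts after OGD, against 317 and 436 in control. Rnf149 had 197 and 237 counts after OGD, against 225 and 224 in control.

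Rnf32 had 9 and 11 counts after OGD, against 15 and 34 in control, and the largest negative log2 fold change of the members at -1.24 (SE 0.59, unadjusted p = 0.0906 in edgeR). Control 2 was the high library, and without it the value was -0.45. Rnf181 had 106 and 106 counts after OGD, against 124 and 159 in control. TRIM ligases numbered 13 with 10 tested, 6 above 0 and 4 below. Trim24, a ligase and transcription cofactor, had 217 and 177 counts after OGD, against 177 and 148 in control, with a log2 fold change of 0.33 (SE 0.20) and no overlap of groups in CPM.

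F-box receptor loci numbered 25 with 13 tested, 8 above 0 and 5 below. Fbxl5, the receptor that senses iron and oxygen and targets iron regulatory proteins, had 272 and 217 counts after OGD, against 275 and 255 in control, with a log2 fold change of -0.06 (SE 0.19). Fbxo25 had 33 and 12 counts after OGD, against 36 and 48 in control, and its log2 fold change of -0.87 became -0.37 without OGD 2 and -1.66 without OGD 1. Fbxw4 had 55 and 54 counts after OGD, against 46 and 51 in control. Fbxo18, now Fbh1 and the gene of a DNA helicase, had 28 and 21 counts after OGD, against 22 and 20 in control. The highest value of a member was 0.80 (SE 0.75) at Fbxo5, an inhibitor of the anaphase-promoting complex, on 32 and 13 counts after OGD, against 6 and 20 in control. The groups overlapped, and the value was 0.12 without OGD 1 and 0.14 without control 1.

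Conjugating enzymes numbered 16 with 13 tested, 7 above 0 and 6 below, and their summed CPM was 3271 and 3424 after OGD, against 3092 and 3367 in control. Ube2d2 had 2518 and 2385 counts after OGD, against 2575 and 2275 in control, with a log2 fold change of 0.08 (SE 0.16), and in CPM both OGD libraries lay above both controls. Ube2j1 had 1274 and 1376 counts after OGD, against 1415 and 1412 in control. Ube2b, an E2 of DNA damage tolerance, had 15 and 11 counts after OGD, against 25 and 17 in control, with a log2 fold change of -0.63 (SE 0.39). Ube4a, a factor that lengthens ubiquitin chains, had 13 and 22 counts after OGD, against 26 and 31 in control, at -0.63 (SE 0.45).

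The activating enzyme gene Uba1 had 5 and 5 counts after OGD, against 6 and 4 in control, and was not tested. Ubxd2, now Ubxn4 and the gene of a partner of the segregase VCP, had 86 and 67 counts after OGD, against 92 and 68 in control. Number 1 libraries were the higher ones in both groups at Ubxd2. No listed name began with Ubr.

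**Figure D4:**
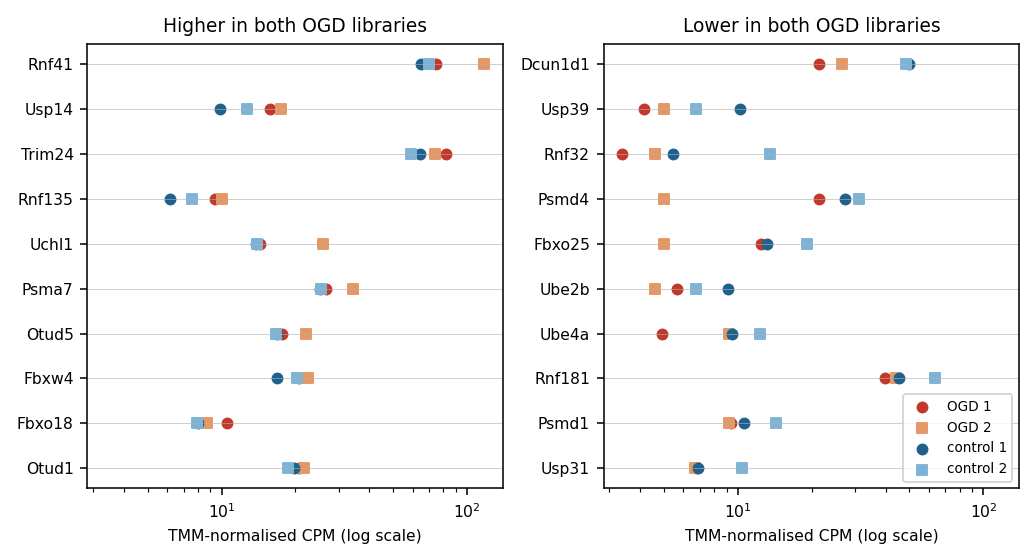
TMM-normalised CPM (log scale) in each library for the 10 members per direction with the smallest p among those whose groups do not overlap and whose mean reaches 20 counts in 1 group. Dcun1d1 lies at 21.5 and 26.7 CPM after OGD, against 49.9 and 48.2 CPM in control. The groups nearly touch at several loci, among them Fbxw4, Otud1, Rnf181 and Usp31.

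Single transcripts were also compared, since 42 member loci joined 2 or more and Ube2d3 joined 7. Of 123 member transcripts tested alone by edgeR, 0 passed the adjusted threshold, against 0.00918% of all 10892 transcripts. At an unadjusted p under 0.05 there were 3 (2.44%), against 2.68% of all transcripts. They lie in Ube2d3 (transcripts b and h) and Rnf4 (transcript c), at loci whose sums had log2 fold changes of 0.11 and -0.11.

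Ube2d3 (chromosome 2, 240626216 to 240655863) had 3515 and 2976 counts after OGD, against 2763 and 3421 in control. Its transcript b had 138 and 213 counts after OGD, against 23 and 29 in control, 2.81 on the log2 scale (SE 0.40) with an adjusted p = 0.371 in edgeR. Transcript h had 0 and 0 counts after OGD, against 35 and 65 in control. With 3 counts for the OGD group as the floor, that is at least 32.0-fold lower, a bound for counting error only (adjusted p = 0.506 in edgeR). Transcript b made up 3.93% and 7.16% of the locus after OGD, against 0.832% and 0.848% in control, and h at most 1.90% in any library.

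The larger transcripts of Ube2d3 varied widely between libraries of 1 group. Transcript d had 2163 and 995 counts after OGD, against 1051 and 742 in control, and in CPM both OGD libraries lay above both controls (log2 fold change 0.86, SE 0.39). Transcript c had 1054 and 1378 counts after OGD, against 1348 and 1950 in control. Transcript f had 0 and 274 counts after OGD, against 147 and 486 in control, with OGD 1 alone at 0. The transcripts lie over each other on the chromosome, so reads of shared exons could have been assigned to any of them. The sources used here do not say how such reads were divided.

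At Rnf4 (chromosome 14, 81658401 to 81679660) the sum was 2466 and 2724 counts after OGD, against 2641 and 3161 in control. Transcript d held between 93.5% and 94.9% of the counts of every library. Transcript c had 33 and 16 counts after OGD, against 2 and 2 in control (3.57 on the log2 scale, SE 0.60, and adjusted p = 0.555 in edgeR). It made up at most 1.34% of the locus in any library.

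Ube2j2 (chromosome 5, 173372680 to 173387081) had 364 and 655 counts after OGD, against 772 and 495 in control. Its transcript c had 0 and 34 counts after OGD, against 42 and 92 in control, and transcript e had 1 and 59, against 25 and 78. Both were near 0 in OGD 1 alone. With a bound of at least 50 counts in 1 library and at most 1 in another, 6 member transcripts were present in 1 library and near absent in another, all of them in loci that join several. These were 14.6% of the 41 such transcripts that reached 50 counts, against 13.8% of 1707 among all multi-transcript loci of the tables. Among members with a single transcript there were 0 of 20, against 1.18% of 4392. The bound was chosen after the counts were seen.

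**Figure D5:**
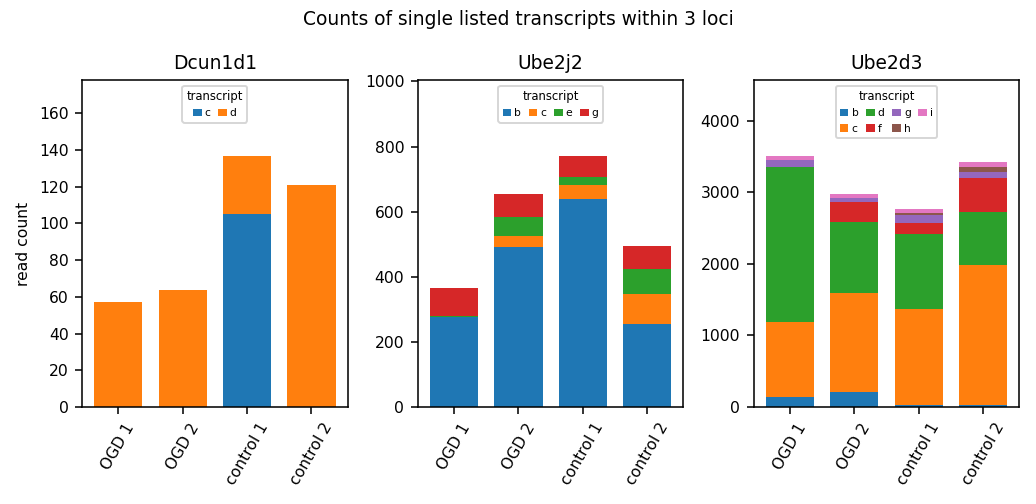
Stacked read counts of the single listed transcripts at Dcun1d1, Ube2j2 and Ube2d3 in each library, OGD on the left, with transcripts lettered as in their names. Transcript c of Dcun1d1 is present in control 1 alone, and transcript f of Ube2d3 is at 0 in OGD 1 alone.

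Member transcripts were spliced more often than other listed transcripts with AceView names. Of the 204, 61 (29.9%) are listed as unspliced, against 54.5% of 16078 others. The others are all remaining AceView names in the tables, whatever kind of locus they stand for. Other loci named after genes were not compared apart, so the gap is not shown to be particular to members. Member transcripts had lengths of 228 to 2905 bases with a median of 689, against a median of 642 for the others. At 16 member loci a transcript lay over a listed transcript of another locus.

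Other genes of the pathway, from a list of ligases, ubiquitin-like proteins, receptors and deubiquitinases outside the name rule, were carried by 60 loci. Of these 48 were tested, 29 lay above 0 and 19 below, with a median log2 fold change of 0.12. By edgeR 0 of the 48 passed the adjusted threshold and 0 had an unadjusted p under 0.05. Both OGD libraries were above both controls at 12 (25.0%) and below them at 4 (8.33%), where 14.0% of all tested loci lay in each direction, and no test of that split was run. Sqstm1, the gene of the autophagy receptor p62 for ubiquitinated cargo, had 399 and 546 counts after OGD, against 383 and 364 in control, with a log2 fold change of 0.41 (SE 0.26) that was 0.08 without OGD 2. Keap1, the receptor by which a cullin 3 ligase degrades NRF2, had 44 and 27 counts after OGD, against 25 and 22 in control. Its log2 fold change of 0.64 was 0.35 without OGD 1. Hgs, which sorts ubiquitinated receptors in endosomes, had 132 and 128 counts after OGD, against 167 and 204 in control. The value at Hgs was -0.46 (SE 0.24), and -0.23 without control 2. These 3 were chosen after their values were seen.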

How the data were processed

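The authors deposited 1 table per library with raw read counts and FPKM values per listed transcript, per the file headers. Per the submitters' processing notes the tools include HISAT2 and StringTie, and the build is the mouse's mm9, whereas the members lie on 20 autosomes, more than the mouse has. Coordinates are therefore printed without a build name. The counter and its strand setting: not given in the sources used here. FPKM values as deposited were only summed per locus.

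Counts were summed per gene name and chromosome. The test was that of edgeR 4.0.16 under R 4.3.3 (filterByExpr, TMM, quasi-likelihood test on group alone, Benjamini-Hochberg adjusted p threshold 0.05 over 9581 loci). An approximate standard error came from dividing the size of the log2 fold change by the root of its F statistic. CPM are scaled by TMM-adjusted totals of the tested loci, in which 3 counts correspond to 1.09 to 1.25 CPM. Intervals and floors cover counting error only. Alternatives were DESeq2 1.42.0, other scalings, no filter, single transcripts, a replicate block, each library left out and, added after seeing the data, overlapping loci merged. The steps were tested on simulated counts.

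Named were members past the threshold, up to 10 per direction with the smallest p, no overlap and a group mean of 20 counts or more, the 10 highest in CPM and in FPKM, all tested proteasome, COP9 signalosome, cullin and Dcun1d loci, and loci with opposed transcripts. Others are named where a count or role calls for it, after their values were seen. Some loci that the rule would name are not reported here. Members and lists were chosen with earlier results of these data known.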

Additional observations from a re-analysis of the deposited data

How the results depend on the processing

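The count of member loci past the adjusted threshold was 0 under all alternatives run, and with an unadjusted p under 0.05 as the threshold it was 1 (Dcun1d1). At that threshold it was 4 with no low-count filter (Dcun1d1, Rnf126, Rnf190 and Rnf215), 3 for transcripts as deposited and 1 to 5 with a library left out, the 5 without OGD 1 being Fbxo25, Psmd4, Rnf126, Rnf150 and Rnf41. Over all loci, 8 passed with group as the only term and 38 with DESeq2, 0 with no low-count filter (403 at an unadjusted p under 0.05), 1 with transcripts as deposited, 223 at an unadjusted p under 0.05 and 0 to 12 with a library left out. With the replicate number as a block, 21 of all loci and 0 members passed, and 3 members, Dcun1d1 and Rnf32 among them, had an unadjusted p under 0.05. The labels do not say that the number pairs samples, and deviations from group means of same-numbered libraries correlated at 0.30 over all tested loci and 0.564 over members. The median log2 fold change of members lay between 0.0017 and 0.11 with a library left out, the highest without control 1. Where a library is left out, its group keeps 1, taken to vary like the other group. The cause was not tested.

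Of the values of named members under alternatives, 413 kept their direction and side of the threshold and 37 changed sign, all for loci that had not passed. With library totals in place of TMM, Cul2 was at -0.043 and Rnf149 at -0.022. With overlapping loci merged, the unit that holds Fbxo18 was at -0.041 and that with Otud5 at -0.055. Ranges with a library left out follow. COP9 subunit genes: Cops2 -0.29 to 0.10, Cops3 -0.0057 to 0.53, Cops4 -0.56 to 0.28, Cops7a -0.24 to 0.048 and Myeov2 -4.49 to 2.57. Cullins: Cul1 -0.95 to 0.49, Cul2 -0.65 to 1.43, Cul4b -0.49 to 0.23 and Cul5 -0.59 to 0.39. Proteasome names: Psmc2 -0.21 to 0.41, Psmc3ip -1.63 to 1.53, Psme1 -0.023 to 0.83 and Psme2.1 -0.21 to 0.57. Conjugating enzymes: Ube2d3 -0.083 to 0.36, Ube2j1 -0.17 to 0.10 and Ube2j2 -0.80 to 0.21. Others: Rnf4 -0.28 to 0.11, Rnf111 -0.046 to 0.55, Rnf149 -0.21 to 0.22, Fbxl5 -0.14 to 0.023 and Usp33 -0.13 to 0.25. The cause was not tested. Dcun1d1 lay between -1.19 and -0.86. Most members have few counts, and with 2 libraries a group the median standard error was 0.36 on the log2 scale.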

Other observations

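Among the 42 members with too few counts to be tested, 4 are given here, chosen after their values were seen. Rnf126, the gene of a ligase for mislocalised proteins, had 10 and 18 counts after OGD, against 3 and 2 in control. That is a ratio of 5.83 of summed counts scaled by TMM-adjusted totals, with an exact 95% counting interval of 2.22 to 19.3. Psmg4, the gene of a proteasome assembly chaperone, had 3 and 0 counts after OGD, against 14 and 5 in control, a ratio of 0.164 with an interval of 0.0311 to 0.558. Both intervals cover counting error only and leave out the spread between libraries. Rnf190, now Marchf10, had 4 and 4 counts after OGD and 0 and 0 in control, at least 2.77-fold higher with 3 counts for the control group as the floor. Rnf215 had 2 and 3 counts after OGD and 0 and 0 in control. When edgeR was run with no low-count filter, the unadjusted p was 0.0121 at Rnf126, 0.0176 at Rnf190, 0.0405 at Rnf215 and 0.0794 at Psmg4, and the adjusted p was 0.997 at all 4.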
